A study of Mus musculus with 3 samples.

Results

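The genes described here are 10 members of the tumor necrosis factor (TNF) family and its signaling adaptors, 4 ligands (Tnf, Tnfsf9, Tnfsf10, and Tnfsf15), 4 receptors (Tnfrsf1a, Tnfrsf1b, Tnfrsf9, and Fas), and 2 adaptors (Traf1 and Traf2). A spot on the array was counted to a member if it was not a control spot and carried the member's name. All 10 names were found among the 34821 gene names on the array, with 13 probes in all, 1 probe for 7 members and 2 probes for Tnfrsf1a, Tnfrsf9, and Traf2. The study asked which genes change in macrophages under a combination of stimuli that makes them engulf live cells. BMDMs, macrophages grown with M-CSF from the bone marrow of C57BL/6J mice, were kept for 20 h with CpG, with IFN-γ + αIL-10R, or with all 3 agents (Triple). CpG DNA stimulates TLR9, and αIL-10R keeps IL-10 from its receptor. The CpG dose was lower than in the study's phagocytosis assays. There was 1 array per condition, so that no difference below has a replicate check. An array of unstimulated BMDMs was not analysed here, and IFN-γ + αIL-10R was the reference, as in the study.

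TNF family ligands are made as membrane proteins that form trimers and can be shed, and they cluster trimeric receptors on the same or other cells. Receptors with a death domain can start caspase activation, whereas others bind TRAF adaptors directly, and both kinds can lead to NF-κB, which in turn induces many genes of the pathway and its inhibitors. Macrophages are a main source of TNF after TLR ligands, and IFN-γ is known to raise this response whereas IL-10 restrains it.

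Each array held 59305 spots that were not controls. The deposited processed signal is a linear intensity after background subtraction, and the share of spots well above background was 46.0% in CpG, 44.8% in IFN-γ + αIL-10R, and 44.4% in Triple. No spot was saturated, and all 3 arrays were on 1 slide. Signals are given as deposited, and folds were computed after each array was divided by the 75th percentile of its probes well above background on all arrays, at 4550 in CpG, 4473 in IFN-γ + αIL-10R, and 4378 in Triple. A gene with several probes was represented by the probe with the highest mean. The only error that the files give is the noise between spots of the same probe. Over 227 probes with replicate spots this noise had a pooled SD of 0.07 on the log2 scale, from 0.17 among the dimmest probes to 0.05 among the brightest. The technical SD of each member's log2 fold was taken from probes of like mean brightness over the 3 arrays and its number of spots. For members much dimmer on 1 array, such as Tnfsf10 and Tnfsf15 in CpG, it may therefore be too small.

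The label of the cells was checked against markers. Of 8 macrophage markers, Lyz2 was left out for spots marked as outliers, and the other 7, among them Csf1r, Adgre1, and Cd68, were well above background on all arrays. Their summed signal was 560622 in CpG, 574623 in IFN-γ + αIL-10R, and 432087 in Triple. Cd3d, Cd3g, and Cd8a of T cells, Ms4a1 and Pax5 of B cells, and Ncr1 and Klrb1c of NK cells were not well above background on any array. Other markers of these cells were well above background on all 3 arrays. In the order CpG, IFN-γ + αIL-10R, and Triple, Cd3e of T cells gave 858, 869, and 806, Lck of T cells gave 94.4, 169, and 150, and Prf1 of NK cells gave 219, 212, and 196. The B cell markers Cd79a and Cd79b gave 66.6, 75.5, and 43.6 and 801, 182, and 108. For neutrophils the signals summed to 3844, 9448, and 4873 over 7 markers in the same order of arrays, of which Ly6g gave 555, 7699, and 2658, and Mpo and Ngp were not well above background on any array. The other 4 neutrophil markers did not follow Ly6g: S100a8 (297, 55.7, and 517) and Camp (72.9 in CpG, 139 in Triple, and not well above background in IFN-γ + αIL-10R) were highest in Triple, and Elane (2839, 1615, and 1539) and S100a9 (58.0 in CpG, 38.3 in IFN-γ + αIL-10R, and not well above background in Triple) were highest in CpG. For dendritic cells the sum was 36126, 38006, and 30095 over 5 markers and included Siglech at 36076, 35974, and 29736. Clec9a, another dendritic cell marker, was not well above background in CpG and gave 1963 in IFN-γ + αIL-10R and 152 in Triple. Zbtb46 and Xcr1 went the other way, with Zbtb46 3.74-fold higher in Triple than in IFN-γ + αIL-10R (133 against 36.3) and Xcr1 well above background in Triple alone, at 60.7. In the order CpG, IFN-γ + αIL-10R, and Triple, Kdr of endothelial cells gave 5344, 5725, and 5706. Of fibroblasts, Col1a1 gave 177, 94.5, and 98.3, and Col1a2 gave 317, 216, and 319. Kit of mast cells gave 93.9 in CpG and 48.4 in Triple, and was not well above background in IFN-γ + αIL-10R. Tek and Tie1 of endothelial cells, Pdgfra of fibroblasts, and Mcpt4 of mast cells were not well above background on any array. The part of these markers in the results below was not tested, and in such bulk samples more cells of a type and more RNA per cell cannot be told apart.

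All 10 members were well above background on all 3 arrays, so that none of their folds is a lower bound. Relative to the 75th percentile of each array, 7 members had their highest signal in Triple, Tnfsf10 and Tnfrsf1a had it in IFN-γ + αIL-10R, and Tnfsf9 had it in CpG. None was lowest in Triple. In Triple over IFN-γ + αIL-10R, 6 of the 10 members (Tnf, Tnfrsf1b, Tnfrsf9, Fas, Traf1, and Traf2) were more than 2-fold higher and 0 were more than 2-fold lower, where 6.57% of the 18055 genes tested were higher and 9.32% were lower. The median log2 fold was 1.33 over the members and −0.05 over all genes tested. In CpG over IFN-γ + αIL-10R, 2 members (Tnfrsf1b and Traf1) were more than 2-fold higher and 2 (Tnfsf10 and Tnfsf15) were more than 2-fold lower, where 5.06% of 18271 genes were higher and 5.85% were lower. The median there was 0.12 over the members and 0.00 over all genes. In Triple over CpG, 7 members (Tnf, Tnfsf10, Tnfsf15, Tnfrsf9, Fas, Traf1, and Traf2) were more than 2-fold higher and 0 were lower, where 7.48% of 18326 genes were higher and 8.34% were lower. The median was 1.91 over the members and −0.06 over all genes. Any pair of these comparisons shares an array, so that an error in that array enters both. The members were chosen with earlier results of these data known. Their counts and medians beside those of all genes are therefore a description only.

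**Figure D1:**
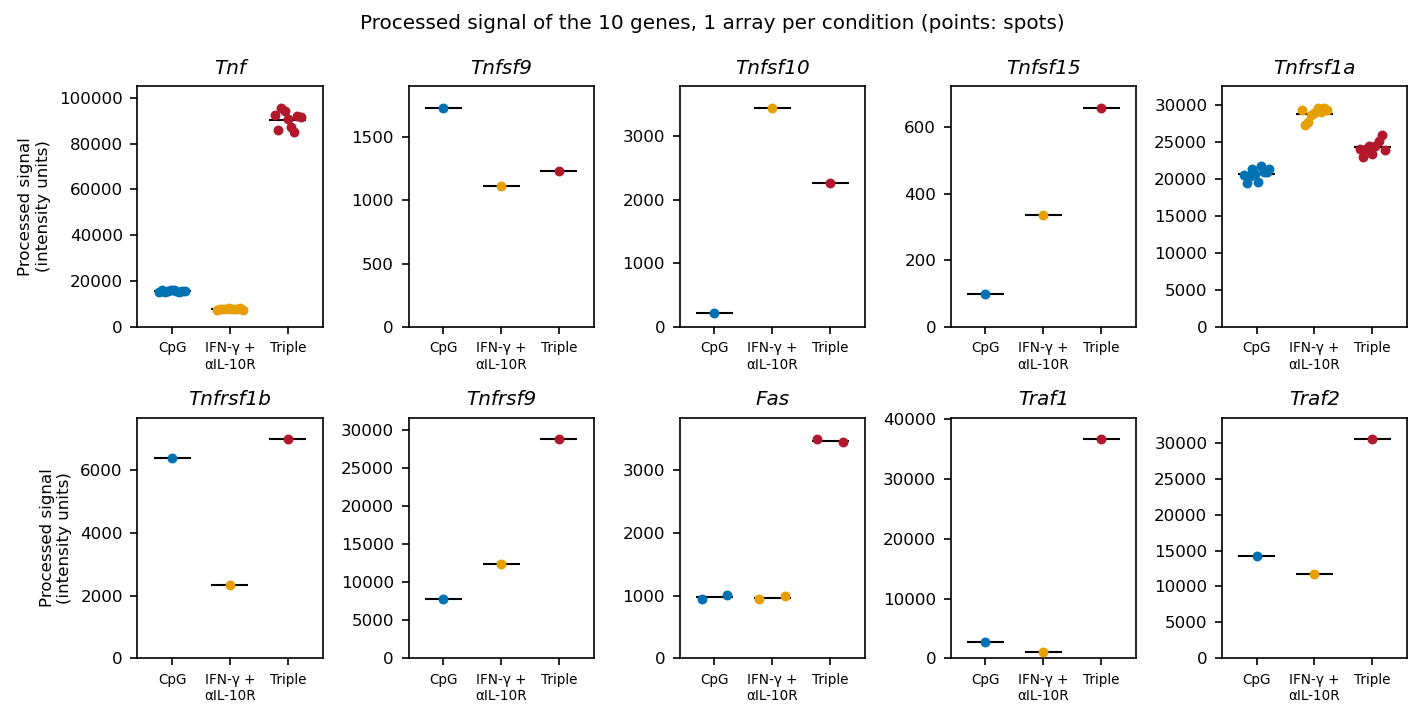
Processed signal (vertical axis, linear intensity units from 0, not scaled between arrays) of the 10 members in CpG, IFN-γ + αIL-10R, and Triple. Points are spots of the probe that stands for the gene and lines are their means, and for 7 of the 10 members the highest points are those of Triple.

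Among the ligands, Tnf, the cytokine that gives the family its name, was measured by a probe with 10 replicate spots at chr17:35336795-35336854 (mm9, minus strand). Its mean signal was 15640 ± 348 (SD, 10 spots) in CpG, 7775 ± 257 (10 spots) in IFN-γ + αIL-10R, and 90497 ± 3611 (9 spots) in Triple. The spots of the 3 arrays did not overlap, from 7393 to 8234 in IFN-γ + αIL-10R, from 15055 to 16148 in CpG, and from 85284 to 95598 in Triple. Triple was therefore far above both other arrays, and CpG lay above IFN-γ + αIL-10R. The fold of Triple was 11.9 over IFN-γ + αIL-10R (log2 3.57, technical SD 0.02) and 6.01 over CpG (log2 2.59). That fold over IFN-γ + αIL-10R ranked 61 from the highest of the 15891 genes that were well above background throughout. CpG over IFN-γ + αIL-10R was 1.98-fold (log2 0.98), just under the threshold, and it passed 2-fold in 5 of 11 other ways of processing, which gave log2 folds from 0.93 to 1.03.

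Tnfsf10, the death-inducing ligand TRAIL, had a different order. Its probe (chr3:27238508-27238567, mm9) gave 216 in CpG, 3444 in IFN-γ + αIL-10R, and 2264 in Triple. CpG was the low array, and the other 2 lay near each other. The signal in CpG was 16.2-fold lower than in IFN-γ + αIL-10R (log2 −4.02, technical SD 0.08), which ranked 41 from the lowest of the 15891 genes. Triple was 10.9-fold above CpG (log2 3.45) and 1.49-fold below IFN-γ + αIL-10R (log2 −0.57), a gap that was beyond 2 technical SD but within the 2-fold threshold.

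Tnfsf15, the ligand TL1A, which costimulates lymphocytes, was also lowest in CpG. Its probe (chr4:63388134-63388193, mm9, minus strand) gave 97.5 in CpG, 336 in IFN-γ + αIL-10R, and 658 in Triple. The signal in CpG was 3.51-fold lower than in IFN-γ + αIL-10R (log2 −1.81, technical SD 0.12), and Triple was 7.02-fold above CpG (log2 2.81). With normexp background correction these log2 folds were −1.34 and 2.22. Unlike Tnfsf10, it was higher in Triple than in IFN-γ + αIL-10R. That difference, a log2 fold of 1.00, lay at the threshold and was not counted as past it, and it passed in 5 of the 11 other ways of processing, with log2 folds from 0.87 to 1.12.

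Tnfsf9, the ligand of the receptor encoded by Tnfrsf9, moved least among the ligands. Its probe (chr17:57247062-57247121, mm9) gave 1733 in CpG, 1118 in IFN-γ + αIL-10R, and 1236 in Triple. CpG was the highest array, and the other 2 were close to each other. CpG over IFN-γ + αIL-10R had a log2 fold of 0.61, Triple over IFN-γ + αIL-10R had 0.18, and Triple over CpG had −0.43 (technical SD 0.08), all within 2-fold. The gap of Triple over IFN-γ + αIL-10R came within 2 technical SD with spike-in scaling (log2 0.05), relative to Actb (0.08), without scaling (0.14), and with normexp (0.16).

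Of the receptors, Tnfrsf1a encodes TNFR1, the death domain receptor of TNF that is present on most cells. Its probe with 10 replicate spots (chr6:125312376-125312435, mm9) gave 20729 ± 727 (SD, 10 spots) in CpG, 28887 ± 829 (9 spots) in IFN-γ + αIL-10R, and 24314 ± 905 (9 spots) in Triple. The 3 groups of spots did not overlap, and their order was IFN-γ + αIL-10R, Triple, CpG. All 3 folds were small, with log2 values of −0.22 for Triple over IFN-γ + αIL-10R, 0.29 for Triple over CpG, and −0.50 for CpG over IFN-γ + αIL-10R. The other probe of Tnfrsf1a (chr6:125311922-125311981) gave −0.20, 0.43, and −0.63 in the same order, and thus the same directions.

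Tnfrsf1b encodes TNFR2, the TNF receptor that lacks a death domain and binds TRAF2. Its probe (chr4:144802359-144802418, mm9, minus strand) gave 6411 in CpG, 2335 in IFN-γ + αIL-10R, and 6992 in Triple. Both arrays with CpG were high and IFN-γ + αIL-10R was low. Triple was 3.06-fold above IFN-γ + αIL-10R (log2 1.61, technical SD 0.07), and CpG was 2.70-fold above it (log2 1.43). Triple over CpG was 1.13-fold (log2 0.18), the smallest of its gaps. It was beyond 2 technical SD here but within it with spike-in scaling (log2 0.10), relative to Actb (0.11), and without scaling (0.13). The 2 receptors of TNF thus differed in the arrays in which they were high.

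Tnfrsf9 encodes CD137, a costimulatory receptor that signals through TRAF1 and TRAF2. Its probe at chr4:150319582-150319641 (mm9) gave 7846 in CpG, 12333 in IFN-γ + αIL-10R, and 28760 in Triple. Triple was the high array and CpG the low one. Triple was 2.38-fold above IFN-γ + αIL-10R (log2 1.25, technical SD 0.07) and 3.81-fold above CpG (log2 1.93), and CpG was 1.60-fold below IFN-γ + αIL-10R (log2 −0.68). The other probe of the gene, at chr4:150319101-150319160, was not well above background on any array, with signals of 19.3, 15.4, and 16.1. When the log2 values of both probes were averaged, the folds of Triple fell within the threshold, to log2 0.67 over IFN-γ + αIL-10R and 0.86 over CpG.

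Fas encodes the death receptor of Fas ligand. Its probe with 2 spots (chr19:34402164-34402223, mm9) had a mean signal of 976 ± 42.4 (SD, 2 spots) in CpG, 967 ± 43.1 in IFN-γ + αIL-10R, and 3466 ± 28.8 in Triple. The spots of CpG and IFN-γ + αIL-10R overlapped, and both spots of Triple lay well above them. Triple was 3.66-fold above IFN-γ + αIL-10R (log2 1.87, technical SD 0.06) and 3.69-fold above CpG (log2 1.89). CpG and IFN-γ + αIL-10R had a log2 difference of −0.01, within 2 technical SD.

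Of the adaptors, Traf1 encodes a TRAF without a RING domain that is itself a known NF-κB target. Its probe (chr2:34798882-34798941, mm9, minus strand) gave 2759 in CpG, 1098 in IFN-γ + αIL-10R, and 36634 in Triple. CpG was above IFN-γ + αIL-10R, and Triple was above both by far. The fold of Triple over IFN-γ + αIL-10R was 34.1 (log2 5.09, technical SD 0.07), the largest of the 30 folds of the members, and ranked 20 from the highest of the 15891 genes. Triple over CpG was 13.8-fold (log2 3.79), and CpG over IFN-γ + αIL-10R was 2.47-fold (log2 1.31).

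Traf2 encodes the adaptor that recruits the ubiquitin ligases cIAP1 and cIAP2 to TNF receptors. Its brighter probe (chr2:25374386-25374445, mm9, minus strand) gave 14209 in CpG, 11675 in IFN-γ + αIL-10R, and 30483 in Triple. Triple was high, and CpG and IFN-γ + αIL-10R lay near each other. The fold of Triple was 2.67 over IFN-γ + αIL-10R (log2 1.42, technical SD 0.07) and 2.23 over CpG (log2 1.16), and CpG over IFN-γ + αIL-10R was 1.20-fold (log2 0.26). The other probe (chr2:25373541-25373600) gave 77.3 in CpG, 56.4 in IFN-γ + αIL-10R, and 156 in Triple, with log2 folds of 1.07 for Triple over CpG and 0.43 for CpG over the reference, so that both probes had the same order. Gene models of mm9 were not used here, so that the exon or UTR under each probe is not given.

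**Figure D2:**
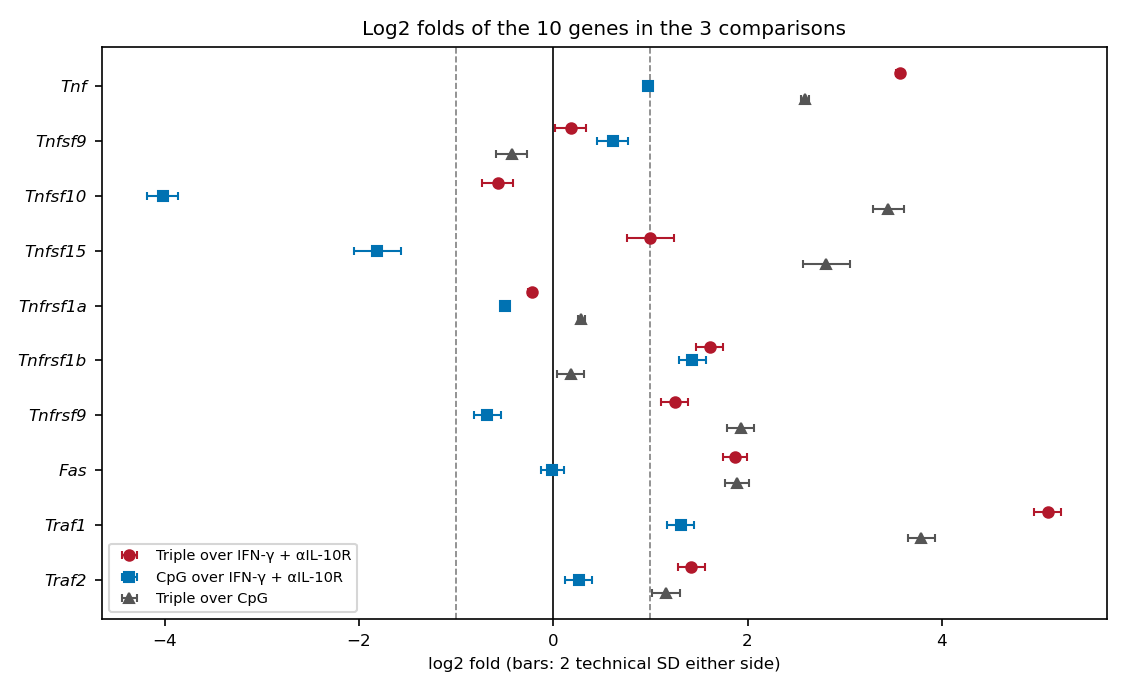
Log2 fold (horizontal axis) of each member in the 3 comparisons, with bars of 2 technical SD on either side and dashed lines at 2-fold. The circles of Traf1 and Tnf (Triple over IFN-γ + αIL-10R) lie far to the right, and the square of Tnfsf10 (CpG over IFN-γ + αIL-10R) lies farthest to the left.

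The 250 bases before the start of transcription were read for the members from RefSeq (GRCm38.p6), which held them for 9 of the 10 members and with 2 starts for Tnfrsf9. Tnfsf9 was not among them. On both strands, 3 motifs were searched: a GAS motif (TTCNNNGAA), an ISRE motif (GAAA, any 2 bases, and GAAA again), and an NF-κB motif of 10 letters. The GAS letters stood in 4 of the 9 members, and in 7.02% of 32841 promoters of the same length. These 4 members were the 4 receptors. The ISRE letters stood in Tnfrsf1b alone and in 2.98% of all promoters, and the NF-κB motif stood in Tnfrsf9 alone and in 3.90%. The sequences below are those of the receptors, with the start of Tnfrsf9 that held matches, in lower case with matches in capitals, and they are followed by those of Tnf and Traf1, which had the largest folds of Triple over IFN-γ + αIL-10R and held none of the 3 motifs.
Tnfrsf1a, chr6:125349473-125349722, plus strand: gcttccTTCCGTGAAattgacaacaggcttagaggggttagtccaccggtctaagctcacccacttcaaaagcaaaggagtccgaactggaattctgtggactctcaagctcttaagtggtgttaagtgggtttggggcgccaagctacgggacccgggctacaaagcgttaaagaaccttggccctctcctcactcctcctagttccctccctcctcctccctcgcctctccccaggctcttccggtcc
Tnfrsf1b, chr4:145246871-145247120, minus strand: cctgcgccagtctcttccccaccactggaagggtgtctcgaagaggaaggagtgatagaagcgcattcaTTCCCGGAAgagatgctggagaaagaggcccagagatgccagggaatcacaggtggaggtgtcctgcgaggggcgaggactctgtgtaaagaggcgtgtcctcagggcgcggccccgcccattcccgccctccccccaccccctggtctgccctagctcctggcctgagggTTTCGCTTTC
Tnfrsf9, chr4:150927749-150927998, plus strand: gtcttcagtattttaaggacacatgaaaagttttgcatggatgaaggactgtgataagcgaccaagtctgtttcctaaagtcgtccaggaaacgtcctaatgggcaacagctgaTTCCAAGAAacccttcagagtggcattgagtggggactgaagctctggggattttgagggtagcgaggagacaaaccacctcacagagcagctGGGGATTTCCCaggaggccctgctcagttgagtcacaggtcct
Fas, chr19:34290409-34290658, plus strand: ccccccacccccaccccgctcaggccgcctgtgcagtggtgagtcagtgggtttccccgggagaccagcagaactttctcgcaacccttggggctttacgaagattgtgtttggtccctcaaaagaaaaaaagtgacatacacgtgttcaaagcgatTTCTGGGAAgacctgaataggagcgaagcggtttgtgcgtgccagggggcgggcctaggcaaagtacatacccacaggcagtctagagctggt
Tnf, chr17:35202008-35202257, minus strand: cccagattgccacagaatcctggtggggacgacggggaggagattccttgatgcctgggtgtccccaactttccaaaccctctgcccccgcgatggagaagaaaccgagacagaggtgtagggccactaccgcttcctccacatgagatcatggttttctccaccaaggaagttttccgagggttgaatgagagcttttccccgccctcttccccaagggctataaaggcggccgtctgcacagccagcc
Traf1, chr2:34961773-34962022, minus strand: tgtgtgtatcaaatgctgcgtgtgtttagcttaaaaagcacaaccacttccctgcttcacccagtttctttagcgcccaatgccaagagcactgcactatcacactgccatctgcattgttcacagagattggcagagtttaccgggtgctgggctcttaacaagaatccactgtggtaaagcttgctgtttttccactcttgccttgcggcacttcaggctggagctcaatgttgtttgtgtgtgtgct

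In Tnfrsf1b the first capitals are the GAS letters, 181 to 173 bases before the start, and the last 10 bases before the start are the ISRE letters on the other strand. In Tnfrsf9 the GAS letters lay 136 to 128 bases before the start, and the NF-κB motif matched at 2 places that overlap in all but 1 base, from 43 to 33 bases before the start. The GAS letters of Fas lay 93 to 85 bases and those of Tnfrsf1a 244 to 236 bases before the start. The 4 receptors with these letters did not share an order of signals: Tnfrsf9 and Fas were high in Triple, Tnfrsf1b was high in Triple and CpG, and Tnfrsf1a changed by less than 2-fold. A match of letters describes the sequence only, and the absence of a match refers to these windows only.

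In the genome, Tnf lies between Ltb and Lta, the genes of the lymphotoxins, by the gene order of RefSeq. Ltb had the same order of arrays as Tnf, with signals of 1701 in CpG, 199 in IFN-γ + αIL-10R, and 4054 in Triple, and Lta was well above background in Triple alone, at 245. Tnfsf15 lies next to Tnfsf8, which went the other way in Triple: Tnfsf8 was 36.8 in CpG and 174 in IFN-γ + αIL-10R and was not well above background in Triple. Fas lies next to Ch25h, the enzyme that makes 25-hydroxycholesterol from cholesterol, and Traf1 lies next to Phf19, a subunit of a Polycomb complex. Unlike Fas, Ch25h was low in CpG, at 953 against 13398 in IFN-γ + αIL-10R and 7101 in Triple. Unlike Traf1, Phf19 was low in Triple, at 199 against 1116 in CpG and 1002 in IFN-γ + αIL-10R. These neighbors were chosen for mention after their values were seen.

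The genes whose pattern was most like each member's were found among 10463 genes with a gene symbol and signals well above background throughout, by the Euclidean distance over the 3 log2 values after each gene's mean was subtracted. For Tnf they were Tspan3 at a distance of 0.22 and Ifitm1 at 0.27, and for Traf1 they were Cd38 at 0.46 and Ppap2a at 0.61. Their nearest genes lay farther away than those of Traf2, for which Irak2 and Mocs1 both lay at 0.01. For Tnfsf10 the nearest genes were Inpp5j at 0.16 and Ch25h at 0.35, and for Tnfsf15 they were Pstpip2 at 0.03 and Kcnab1 at 0.14. Among the receptors, Tnfrsf1b was nearest to Hif3a at 0.02 and Plk3 at 0.04, Tnfrsf9 to Jak2 at 0.01 and Tmprss3 at 0.07, and Fas to Slc1a4 at 0.10 and Myo10 at 0.12. With only 3 values per gene, such a distance is a description of these arrays.

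Other genes of the pathway were read from lists. Of 14 other ligands of the family, 11 had values, and 6 of these were not well above background on any array, so that 5 could be compared in Triple over IFN-γ + αIL-10R. Of these, 2 were higher, 2 were lower, and the median log2 fold was −0.35. Ltb was 20.8-fold higher (log2 4.38) and Lta at least 9.40-fold higher, whereas Tnfsf13b, the B cell survival factor BAFF, was 9.13-fold lower (log2 −3.19) and Tnfsf8 at least 6.47-fold lower. Tnfsf13b gave 116 in CpG, 1639 in IFN-γ + αIL-10R, and 176 in Triple. It was therefore low in CpG, like Tnfsf10 and Tnfsf15, but unlike them it was also low in Triple.

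Of 24 other receptors of the family, 14 could be compared in Triple over IFN-γ + αIL-10R, of which 2 were higher and 5 were lower, with a median log2 fold of −0.13. With other ways of processing the lower ones numbered 3 to 5. Of the 11 other ways, the call was lost in 5 for Tnfrsf13b (log2 −0.98 to −0.52 there), in 5 for Tnfrsf26 (−0.99 to −0.97), and in 1, normexp, for Tnfrsf21 (−0.73). Cd40, which binds TRAFs and activates antigen-presenting cells, gave 1451 in CpG, 4777 in IFN-γ + αIL-10R, and 45468 in Triple. Like Tnfrsf9, it was highest in Triple and lowest in CpG, with folds of Triple of 9.72 over IFN-γ + αIL-10R and 32.6 over CpG. Tnfrsf14 was 2.87-fold higher in Triple than in IFN-γ + αIL-10R, whereas Tnfrsf12a was 2.92-fold lower and Tnfrsf18 at least 7.62-fold lower.

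Of 28 other TRAFs, adaptors, kinases, ligases, and proteases near the receptors, 24 could be compared in Triple over IFN-γ + αIL-10R, of which 4 (Cflar, Birc3, Tank, and Ikbkg) were higher and 0 were lower, with a median log2 fold of 0.06. The call of Ikbkg was lost in 3 of the 11 other ways of processing. Traf3, Tradd, and Mlkl were left out for outlier marks. Cflar, the inhibitor of caspase-8 activation at death receptors, gave 3023 in CpG, 1088 in IFN-γ + αIL-10R, and 10288 in Triple, a fold of 9.66 for Triple over IFN-γ + αIL-10R. Birc3, which encodes the TRAF2 partner cIAP2, gave 1618, 530, and 3625 in the same order, a fold of 6.99. Both had the order of Traf1 and Traf2. Traf5 was not higher in Triple than in IFN-γ + αIL-10R (log2 0.01) and was 2.79-fold lower in CpG.

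Of 12 inhibitors of TNF signaling, 7 were higher and 1 was lower in Triple than in IFN-γ + αIL-10R, with a median log2 fold of 1.88. In CpG over IFN-γ + αIL-10R, 4 were higher and 0 lower, with a median of 0.41. In Triple over CpG, 3 were higher and 1 was lower (7.48% and 8.34% of all genes tested), with a median of 0.58. Nfkbia (1.79-fold) and Zc3h12a (1.47-fold) were within 2-fold there. Nfkbia, the NF-κB inhibitor IκBα, gave 84107 in CpG, 14117 in IFN-γ + αIL-10R, and 144855 in Triple, a fold of 10.5 for Triple over IFN-γ + αIL-10R, and the RNase gene Zc3h12a was 7.62-fold higher. Tnfaip3, the ubiquitin-editing enzyme A20, was 5.40-fold higher. Zfp36l1, which promotes decay of mRNAs with AU-rich elements, was 6.16-fold lower. Of 5 NF-κB subunits, Rela was left out for outlier marks and Rel was not well above background, and in the same comparison Nfkb2 and Relb were 5.09-fold and 4.05-fold higher and Nfkb1 was 1.97-fold higher, which passed 2-fold in 4 of the 11 other ways of processing (log2 1.04 to 1.09).

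Of 5 genes of TNF and receptor shedding, Rhbdf2, which is needed for maturation of the TNF convertase ADAM17 in myeloid cells, was 2.35-fold higher in Triple than in IFN-γ + αIL-10R, and Adam10 was 2.01-fold lower, a call lost in 5 of the 11 other ways of processing (down to log2 −0.89 in size). Rhbdf1 was at least 3.83-fold lower in Triple than in CpG, a call lost with normexp (log2 −0.84). Of 14 known TNF target genes outside the family, 10 could be compared, and 9 of these were higher in Triple than in IFN-γ + αIL-10R and 0 were lower, with a median log2 fold of 2.59. In CpG over IFN-γ + αIL-10R, 3 of the 10 were higher (Cxcl2 was not among them with normexp), with a median of 0.64. Cxcl2, a neutrophil chemoattractant, was at least 13.2-fold higher in Triple than in IFN-γ + αIL-10R, Ier3 was 11.5-fold higher, Sod2 was 9.51-fold higher, and Tnfaip2 was 7.93-fold higher. Most genes of this list are also known targets of TLR signaling, and the part of TNF itself in their values was not tested.

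**Figure D3:**
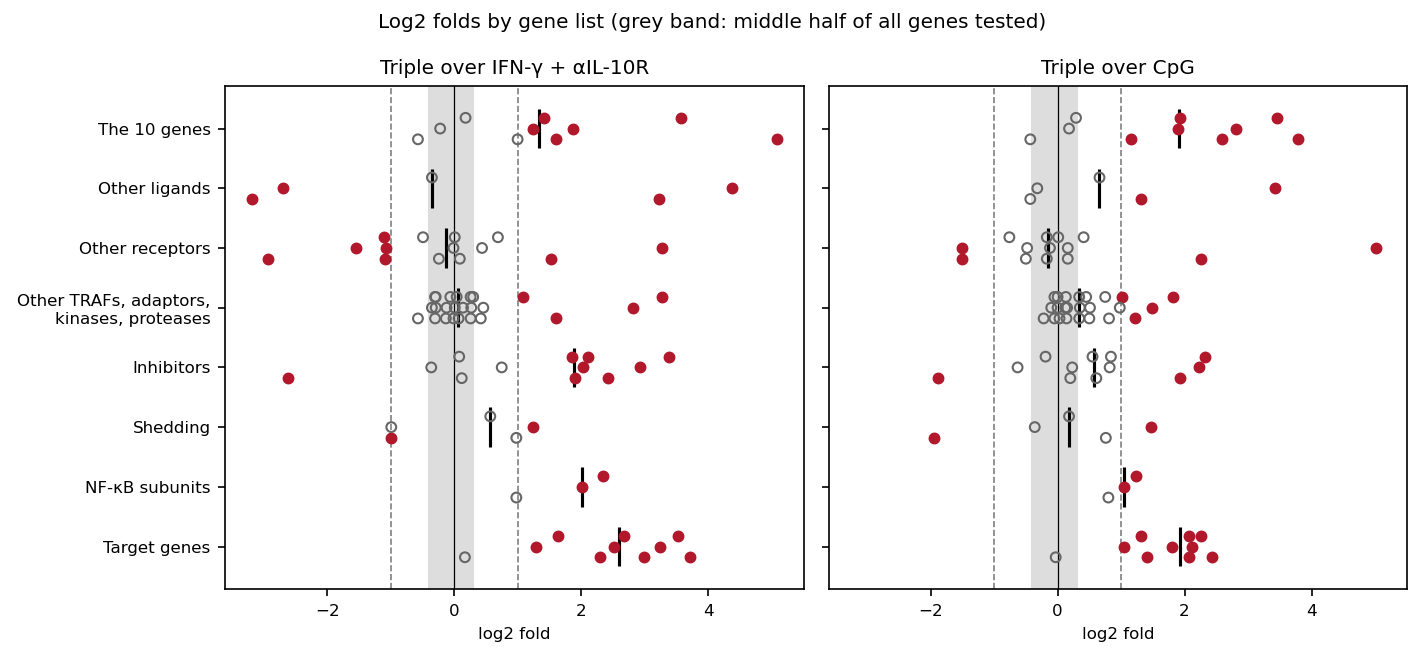
Log2 fold (horizontal axis) of Triple over IFN-γ + αIL-10R and of Triple over CpG for the members and for 7 lists of other pathway genes, with filled points past 2-fold, open points within it, black lines at the medians, and a grey band from the lower to the upper quartile of all genes tested. Folds against a signal not well above background are drawn at their lower bound, and the target genes and the inhibitors lie mostly to the right in Triple over IFN-γ + αIL-10R.

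**Figure D4:**
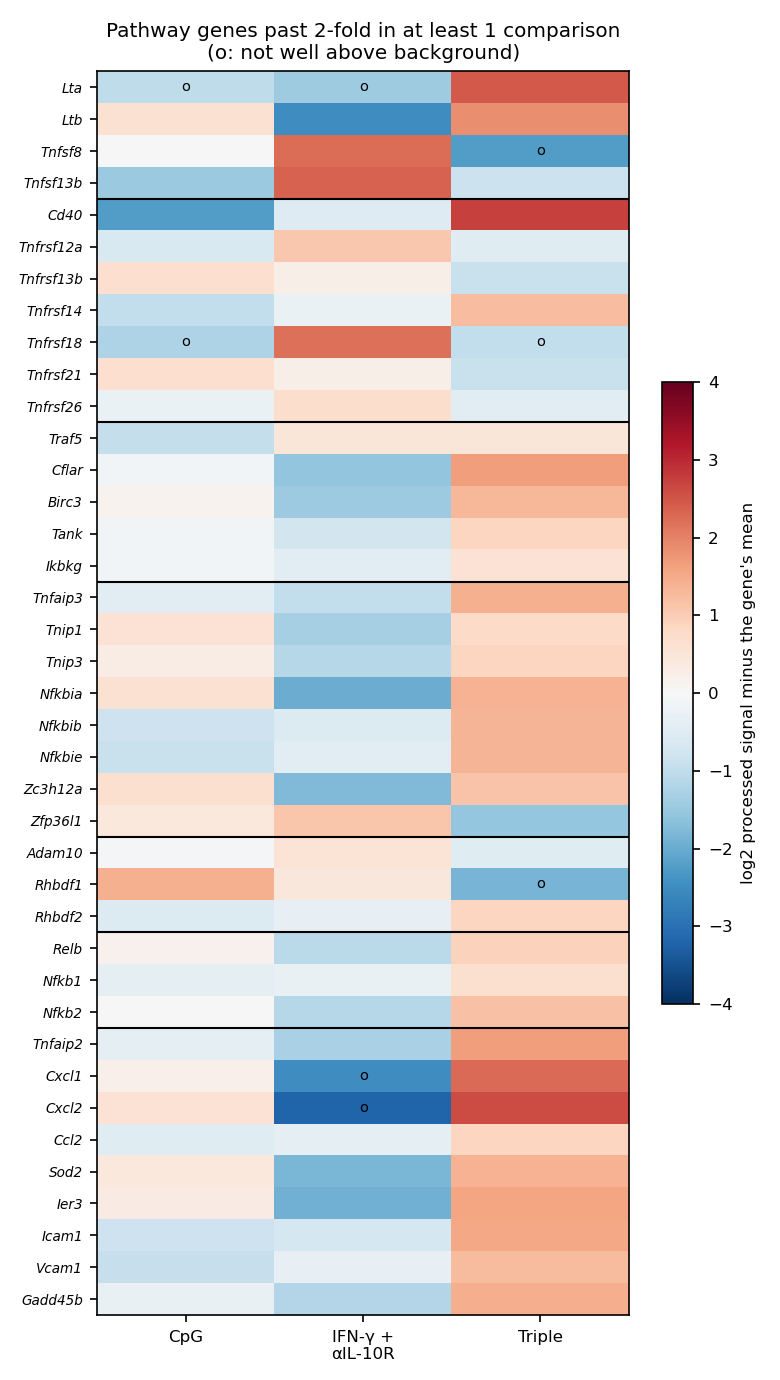
Log2 processed signal (colour, not scaled between arrays) minus the mean over the 3 arrays for the 39 other pathway genes past 2-fold in at least 1 comparison, with rows grouped by list and circles where a signal was not well above background. Most rows among the inhibitors, NF-κB subunits, and target genes are red in Triple, and Tnfsf13b, Tnfrsf12a, and Tnfrsf18 are red in IFN-γ + αIL-10R.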

How the data were processed

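RNA of BMDMs was labeled in 1 colour and hybridized to Agilent mouse arrays. For each array the authors deposited a file from Agilent Feature Extraction 10.10.1.1 with processed signals, each an intensity after background subtraction and detrending, with surrogates for dim spots. A second deposited table holds log2 values, and its columns (medians −4.26, −4.38, and −4.27) differed from the log2 processed signal by 1 constant per array, to within 0.01 for 99.9% of the probes well above background. Its normalization was not given in the sources used here.

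Control spots and spots with outlier marks (3.04% in CpG, 3.78% in IFN-γ + αIL-10R, and 3.33% in Triple) were left out, and log2 values were averaged over the spots of a probe. The mean share of probes well above background was 44.2%, less than the limit of 50%, and the 75th percentile was therefore that of the probes that were so on all arrays. A gene was called if its brighter signal was well above background and more than 2-fold above the other. A dim signal was raised to the lowest signal well above background (23.8 in CpG, 26.7 in IFN-γ + αIL-10R, and 26.3 in Triple), so that its fold is a lower bound ("at least"). No test was made.

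The genes named by rule are the members, the 2 genes most like each member past 2-fold, and up to 4 called genes per list with the largest fold. Besides these, the text names markers, genomic neighbors, genes without a usable value, and some list genes whose call changed with the processing. Members and lists were chosen with earlier results of these data known. Of 27648 probes with a RefSeq accession, 26090 matched a RefSeq table of GRCm38.p6, used for names, gene order, and promoters. Adgre1 is Emr1 on the array, and Bcl2a1a, Tnfsf13, and Trac were not matched. Not every listed marker is reported here.

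As alternatives, the background was corrected with normexp in limma 3.58.1 (R 4.3.3, offset 50), and arrays were scaled by quantiles, medians, spike-in probes, Actb, a 75th percentile that included dim probes, not at all, or as in the authors' table. Further alternatives were other filters on dim probes, the mean of all probes, RefSeq mRNA probes only, the use of spots with outlier marks, a threshold of 1.5-fold or 3-fold, and omission of genes whose only spot lies in the first 48 of 384 rows. The code was tested on simulated data. Calculations used Python 3.11.15, numpy 2.4.6, and pandas 2.3.3.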

Additional observations from a re-analysis of the deposited data

How the results depend on the processing

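Of the 17 member folds past 2-fold, 15 kept their call in all 11 ways of processing that change values, and 0 changed direction. The other 2 were those of Tnfrsf9 in Triple, which fell within 2-fold only when its dim probe was averaged in (log2 0.67 over IFN-γ + αIL-10R and 0.86 over CpG). Of the 13 folds within 2-fold, 11 stayed within it, and those of Tnf in CpG over IFN-γ + αIL-10R (log2 0.93 to 1.03) and of Tnfsf15 in Triple over IFN-γ + αIL-10R (log2 0.87 to 1.12) crossed it. In CpG over IFN-γ + αIL-10R, 4 members were past 2-fold, 7 were past 1.5-fold (where 11.2% of all genes tested were higher and 12.8% lower), and 2 were past 3-fold (2.30% and 2.82%). In Triple over IFN-γ + αIL-10R, 7 were past 1.5-fold (13.3% of genes higher and 17.4% lower) and 4 past 3-fold (3.43% and 4.56%), and in Triple over CpG, 7 (14.3% and 16.5%) and 6 (3.85% and 3.83%). With 2-fold the other ways of processing gave 5 to 7, 4 to 5, and 6 to 7 members in Triple over IFN-γ + αIL-10R, CpG over IFN-γ + αIL-10R, and Triple over CpG. The median log2 fold of genes well above background in Triple over IFN-γ + αIL-10R was shifted by −0.13 with spike-in scaling and by 0.11 with the authors' table, median scaling, or a 75th percentile that included dim probes. With normexp, 3.03% of genes were higher in CpG than in IFN-γ + αIL-10R and 3.88% lower, 6.09% were lower in Triple than in IFN-γ + αIL-10R, and 5.00% were lower in Triple than in CpG. No paired analysis was possible because a single array stood for each condition. The technical SD covers noise between spots only, and single spots of dim genes are the least precise.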
